A study of Arabidopsis thaliana with 28 samples.

Results

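The 62 probe sets described here had higher transcript levels in Arabidopsis seedlings that overexpress CBF1, CBF2 or CBF3 in warmth, yet were not higher in wild-type seedlings given cold. They are 62 of the 22810 probe sets on the array, and 14623 probe sets passed the filter for testing. A probe set is a group of oligonucleotides on the array that reads the transcripts of 1 gene or, for some, of several genes. A log2 level is its brightness on a scale where 1 unit is a 2-fold difference. A member had a log2 level above 4 in at least 4 samples, carried no gene symbol in the platform annotation, had a mean at least 0.7 above warm wild type in each of CBF1OX, CBF2OX and CBF3OX, and had a cold change in the wild type of at most 0.3. Of 319 such probe sets raised in all 3 overexpressors, 62 met the limit on cold and 257 lay above it. Of the 62, 25 carried a single AT locus name, 35 had no gene in the annotation and 2 had several loci, and the last 37 are called by their probe set identifiers. A further 6 probe sets with gene symbols (tny, PUB22, EXO, ATPMEPCRB, ICL and MYBC1) had the same kind of values but were outside the choice because of their names.

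All 28 samples were the entire aerial part of seedlings of Ws-2, an accession of Arabidopsis thaliana, and each of the 7 groups had 4 samples. They comprised CBF1OX, CBF2OX and CBF3OX, which overexpress the full-length genes and were kept warm, and CBF2DN in cold and in warmth, which overexpress CBF2Δc, a truncated CBF2. The wild type was sampled in cold and in warmth. Warm plants were 11 d old, raised at 22 °C under continuous light near 100 µmol m-2 s-1, and cold was a 24 h exposure to 4 °C under dimmer light, near 35 µmol m-2 s-1, so cold plants also differed in light. Each of the 4 constructs was carried by 2 transgenic lines with 2 samples each: G39 and G5 for CBF1OX, E24 and E2 for CBF2OX, A30 and A28 for CBF3OX, DN96 and DN89 for CBF2DN, with the line named first holding replicates 3 and 4. The sources used here name neither the promoter of the transgenes nor the pooling of seedlings, so p-values reflect only how far these samples scatter, which may be partly technical. In such whole-shoot samples, fewer cells of a type and less RNA per cell cannot be told apart. No probe set was named for CBF1, CBF2 or CBF3, so the transgenes themselves were not checked by name.

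The CBF proteins are plant transcription factors with an AP2 domain, and they bind promoters at the CRT/DRE motif. Their genes are induced within a short time of cold and raise a regulon of protective genes, such as the COR and dehydrin genes, which contributes to freezing tolerance. Constitutive overexpression switches on this regulon without cold and also slows growth. The 62 members share the response to the overexpressors with that regulon and lack its rise in cold.

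The 25 named loci include genes with a wide range of described products, given here as background and not as a result of these data. They include a cytochrome P450 (AT3G44970), a cupin family protein (AT4G36700), a class III peroxidase (AT5G64120, PRX71), proteinase inhibitors of the potato type I family (AT2G38870) and the Kunitz family (AT1G17860), a chitinase family protein (AT4G01700), a wound-responsive family protein (AT4G10270), a short peptide of the iron-deficiency response (AT1G47400), a lipid-transfer protein (AT1G48750), a SOUL heme-binding family protein (AT1G78450), a MATE family transporter (AT5G17700), an acetamidase/formamidase family protein (AT4G37550), a galactosyltransferase family protein (AT2G32430), a DUF642 cell-wall protein (AT3G08030) and an RraA-like protein (AT5G16450). For AT5G59080, AT5G58570, AT1G65490, AT1G12030, AT3G28270, AT1G27030, AT1G75730, AT1G75770, AT4G23930 and AT4G27590 the locus alone is given. All 25 loci matched a protein-coding gene in the RefSeq table of TAIR10.1, with 9 on chromosome 1, 2 on chromosome 2, 3 on chromosome 3, 6 on chromosome 4 and 5 on chromosome 5. AT1G75730 and AT1G75770 are near neighbours there, with 2 protein-coding genes between them.

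The members were chosen by their differences from warm wild type in the 3 overexpressors and in cold wild type, so these values are a description only. The median difference from warm wild type was 1.25 in CBF1OX, 1.01 in CBF2OX and 1.10 in CBF3OX, where the medians over all tested probe sets were 0.01, 0.00 and 0.00. The differences spanned 0.71 to 2.76, 0.72 to 2.53 and 0.70 to 2.72. With a call defined as an adjusted p below 0.05 over all tested probe sets together with at least 2-fold, 37, 26 and 30 members were called higher in CBF1OX, CBF2OX and CBF3OX, against 1.8%, 1.7% and 1.94% of all tested probe sets. In the wild type the median cold change was -0.27, against -0.04 over all tested probe sets, and 11 members were called lower, against 9.66% of all tested. The choice itself raised the overexpressor counts and barred large rises in cold, so none of these counts is a test. Just inside the limit on the rise lay AT1G75730 at 0.70 and 246864_at and 250476_at at 0.72, and just outside lay 255671_at at 0.695, AT1G33265 at 0.69 and 260408_at at 0.685. At the limit on cold, AT5G16450 (0.30), 251895_at (0.29) and 258209_at (0.255) were inside, and 266116_at (0.32), 263595_at (0.3525) and 266721_at (0.355) were outside.

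Passing the filter on low values was part of the choice, so all 62 members were tested. Means above the level of 4 were found for 60 members in CBF1OX, 58 in CBF2OX and 60 in CBF3OX, for 43 in cold and 53 in warm CBF2DN plants, and for 44 in cold and 51 in warm wild-type plants. The size of a difference depends on the background correction where a mean is under that level, as for AT4G36700, AT3G44970, AT1G78450, AT1G12030, AT4G27590, AT1G75770 and 257471_at in warm wild type. The same may hold for 266830_at, whose means were above 4. It had 4.21 in every cold wild-type sample and 4.17 to 4.24 in the CBF2DN samples.

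**Figure D1:**
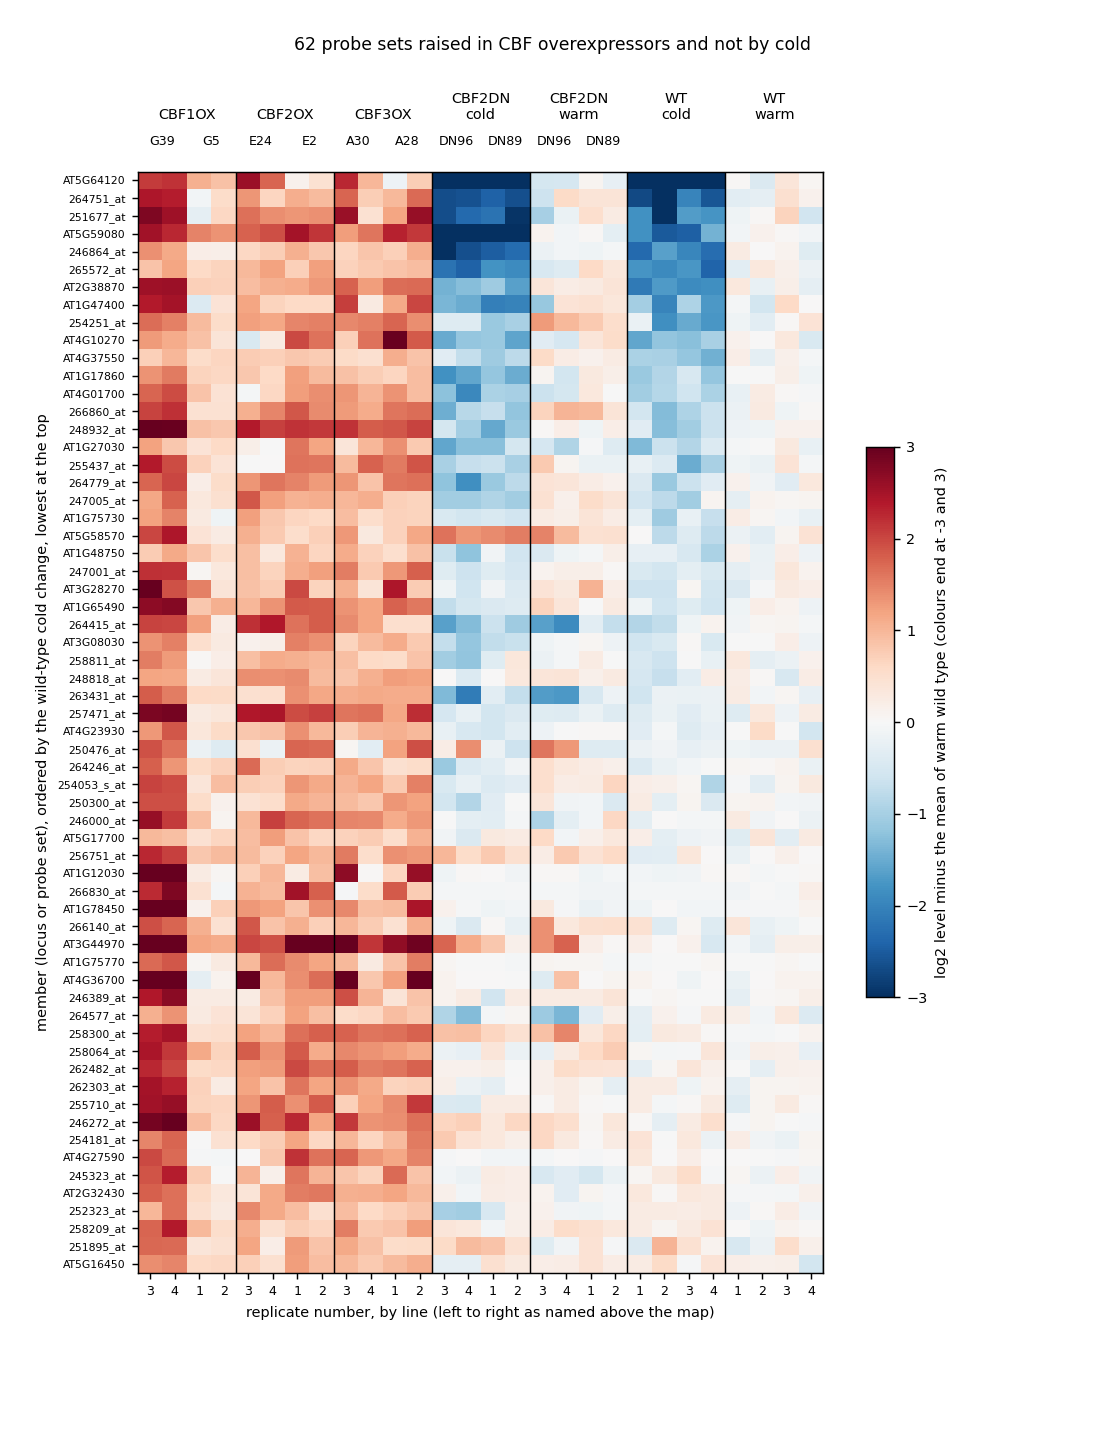
Log2 level of each of the 62 members (rows, ordered by the wild-type cold change, lowest at the top) relative to the warm wild-type mean of 4 samples, in all 28 samples (columns, with the construct and line above and the replicate number below). Red is higher and blue lower than warm wild type. Line G39 is red throughout and line G5 pale, and the top rows are blue in both cold groups.

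AT3G44970, the cytochrome P450, had the largest mean difference over the 3 overexpressors, 2.58. Its log2 level was 7.64 and 7.64 in G39 and 5.0 and 4.92 in G5, both of CBF1OX. In CBF2OX it was 5.81 and 5.73 in E24 and 6.96 and 6.84 in E2, and in CBF3OX 6.97 and 5.95 in A30 and 6.47 and 6.73 in A28. All 12 overexpressor samples lay above the warm wild-type samples, which were at 3.72, 3.55, 3.98 and 3.99. Cold wild-type plants, at 4.01, 3.82, 3.93 and 3.33, overlapped the warm ones. CBF2DN plants had 5.55 and 4.92 (DN96) and 4.62 and 3.97 (DN89) in cold, and 5.18 and 5.57 (DN96) and 4.01 and 3.85 (DN89) in warmth, so that DN96 lay above the wild type in both conditions and DN89 overlapped it in both.

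AT4G36700, the cupin family gene, had a mean difference of 2.36 that was very uneven between samples. In G39 its log2 level was 9.55 and 8.94, and in G5 it was 3.38 and 3.77. The CBF2OX samples had 6.82 and 4.62 in E24 and 5.04 and 5.33 in E2. The CBF3OX samples had 7.44 and 4.47 in A30 and 4.88 and 7.89 in A28. Warm wild-type plants had 3.46, 3.66, 3.75 and 3.75, a range that G5 overlapped and the other 5 lines exceeded. Both cold groups overlapped warm wild type, with 3.66 to 3.77 in cold wild-type samples other than the lowest, at 3.52, and 3.64 to 3.75 in cold CBF2DN samples.

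The SOUL heme-binding family gene AT1G78450 showed the same order of the CBF1OX lines. Its log2 level was 6.33 and 7.14 in G39 and 3.22 and 3.81 in G5. It ran from 3.93 to 4.48 in CBF2OX and from 4.01 to 5.55 in CBF3OX, against 3.06 to 3.20 in warm wild type. All 12 overexpressor samples lay above warm wild type, and the cold samples of CBF2DN and wild type had at most 3.22.

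AT5G59080 was the most even of the strongly raised members. Its log2 level was 9.60 and 9.34 in G39, 8.57 and 8.44 in G5, 8.86 and 9.02 in E24, 9.59 and 9.23 in E2, 8.33 and 8.68 in A30 and 9.38 and 9.20 in A28. It stood at 3.04, 4.05, 4.02 and 3.00 in cold CBF2DN plants, against 7.11, 6.79, 7.18 and 7.01 in warm CBF2DN plants. The wild type had 5.26, 4.56, 4.63 and 5.66 in cold, against 7.01, 7.20, 7.11 and 7.01 in warmth. No group overlapped another here, except the 2 warm groups and the 3 overexpressors among themselves.

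The peroxidase gene AT5G64120 had the lowest wild-type cold change of the members, at -3.56. Its log2 level was 10.09 and 10.17 in G39, 9.05 and 8.86 in G5, 10.56 and 9.74 in E24, 8.12 and 8.45 in E2, 10.25 and 8.98 in A30 and 7.83 and 8.72 in A28. Cold CBF2DN plants had 4.75, 3.97, 4.34 and 4.84, against 8.08, 7.74, 7.47 and 7.49 in warm CBF2DN plants. Cold wild-type plants had 4.82, 4.34, 3.81 and 4.78, against 8.03, 7.55, 8.35 and 8.04 in warm wild-type plants. Lines E2 and A28 overlapped warm wild type, and the cold groups lay far under every warm sample.

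Among the proteinase inhibitors, AT2G38870 had log2 levels of 11.14 and 11.16 in G39, 9.32 and 9.29 in G5, 9.53 to 9.89 in CBF2OX and 9.84 to 10.37 in CBF3OX. It had 7.54, 6.97, 7.17 and 7.32 in cold CBF2DN plants, against 8.86, 8.99, 8.95 and 8.82 in warm ones. It had 6.47 to 6.89 in cold wild type, against 8.33 to 8.90 in warm wild type, so the overexpressors lay above and both cold groups under all warm wild-type samples. The Kunitz inhibitor AT1G17860 had 10.04 and 10.24 in G39, 9.34 and 9.31 in G5, 9.28 to 9.91 in CBF2OX and 9.33 to 9.61 in CBF3OX. Its values were 7.52, 7.20, 6.86 and 7.13 in cold CBF2DN plants, against 8.98, 8.86, 8.76 and 8.13 in warm ones, and 7.53 to 8.21 in cold wild type, against 8.55 to 8.86 in warm wild type. For both inhibitors the overexpressor samples lay above all warm samples and the cold samples of a genotype under its warm ones.

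AT1G47400, the peptide gene of the iron-deficiency response, varied more between samples of 1 line. Its log2 level was 11.35 and 11.48 in G39, 8.58 and 9.40 in G5, 10.16 and 9.64 in E24, 9.59 and 9.58 in E2, 11.06 and 9.25 in A30 and 10.11 and 10.98 in A28. Cold CBF2DN plants had 6.92, 6.98, 7.60 and 7.5, against 9.43, 9.33, 7.85 and 9.39 in warm ones. The wild type had 7.96, 7.01, 8.05 and 7.26 in cold, against 8.93, 8.43, 9.58 and 8.99 in warmth. The overexpressors overlapped warm wild type, through 1 sample of E2, at the highest warm wild-type value, both samples of G5 and replicate 4 of A30.

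**Figure D2:**
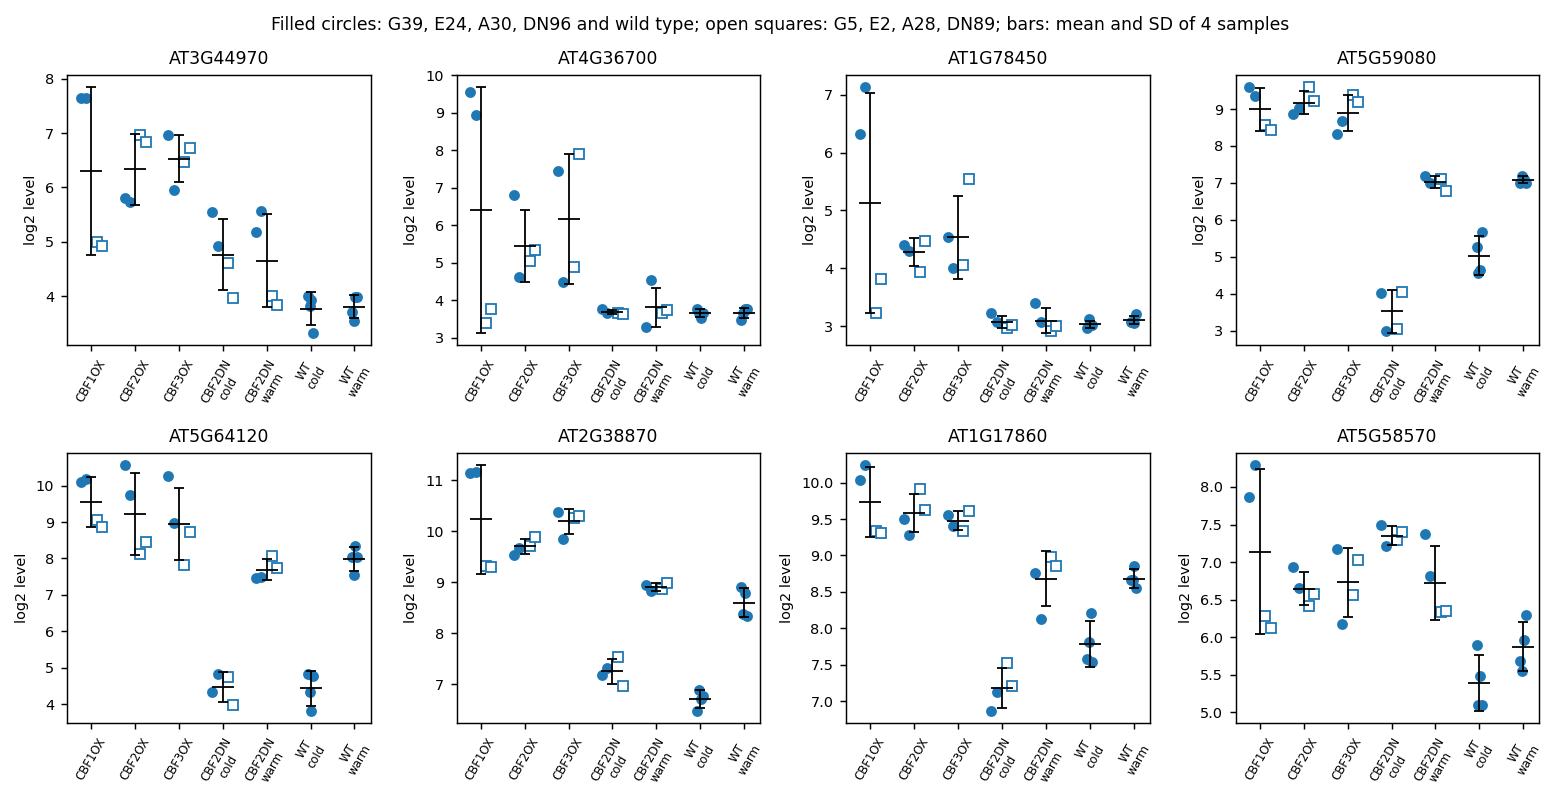
Log2 levels of 8 members (1 panel each) by group: the 3 overexpressors, CBF2DN in cold and warmth and wild type in cold and warmth. Filled circles are G39, E24, A30, DN96 and wild-type samples, open squares are G5, E2, A28 and DN89, and the horizontal bars give the mean and SD of 4 samples. The first 3 genes have alike levels in cold and warm wild type, the next 4 are lower in both cold groups than in both warm groups of the same genotypes, and AT5G58570 is higher in cold CBF2DN plants than in cold wild type.

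Whether members also decline in cold when CBF2DN is present was tested in the CBF2DN samples, whose cold change was no criterion of the choice. They counted in the filter on low values, which all 62 members also passed in the 20 other samples alone. Between cold and warm CBF2DN plants, 17 of 62 members (27.4%) fell and none rose, where 8.98% of all tested probe sets fell and 9.05% rose. At an unadjusted p below 0.05, 27 members were lower and 1 was higher. The share of all tested probe sets at that level is not given, here or below, so such counts stand without a background. At an adjusted p below 0.05 with no minimum change, 24 members passed, all lower. Of all 14623 tested probe sets, 7656 passed that limit in either direction. The median change was -0.40, against -0.04 over all tested probe sets, and the 257 probe sets raised by the overexpressors and above the limit on cold had 149 rises, 2 falls and a median of 1.34. The limit on the wild-type cold change favours falls over rises here. Cold changes of CBF2DN and wild type had a Pearson correlation of 0.94 over all tested probe sets. That limit also parted the 257 from the members, so these counts are not independent of the choice. The largest falls were those of AT5G59080, by 3.50 ± 0.29 (SE, adjusted p = 1.95e-10), and AT5G64120, by 3.22 ± 0.45 (adjusted p = 1.32e-06).

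The other genes with a locus name that fell included both proteinase inhibitors. AT2G38870 fell by 1.66 ± 0.29 (adjusted p = 3.72e-05) and AT1G17860 by 1.51 ± 0.20 (adjusted p = 9.58e-07). AT4G10270 fell by 1.37, the chitinase family gene AT4G01700 by 1.06, the iron-deficiency peptide gene AT1G47400 by 1.75 ± 0.49 (adjusted p = 0.00438) and the acetamidase/formamidase family gene AT4G37550 by 1.02. Of the probe sets without a single locus, 264751_at (-2.77), 246864_at (-2.53), 251677_at (-2.43), 265572_at (-2.09), 266860_at (-1.81), 254251_at (-1.60), 264779_at (-1.52), 247005_at (-1.39) and 248932_at (-1.12) fell too. Named members that did not pass included the P450 gene AT3G44970, at 0.11, the galactosyltransferase family gene AT2G32430, at 0.18, and the lipid-transfer gene AT1G48750, at -0.53. Nearer to the 2-fold limit, also without a call, were AT1G65490 (-0.84), AT3G28270 (-0.80), AT1G75730 (-0.77), AT3G08030 (-0.75) and AT1G27030 (-0.685). The cupin gene AT4G36700, at -0.13, and the SOUL family gene AT1G78450, at -0.02, had means under 4 in both groups, where a fall could not be measured. The calls of 3 members ended without single samples, since their change dropped under 2-fold at an adjusted p still below 0.05. AT4G01700 came to -0.84 without cold replicate 4 and -0.88 and -0.99 without warm replicates 1 and 2, AT4G37550 to -0.91, -1.0 and -0.93 without cold replicates 1 and 2 and warm replicate 3, and 248932_at to -0.95 without cold replicate 1.

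Cold changes in CBF2DN plants and in wild type went together, over the members as over all tested probe sets. Of the 17 members with a wild-type cold change of -0.7 or lower, 16 had a CBF2DN cold change of -0.7 or lower, with a median of -1.66. Of the 45 other members, 9 did, with a median of -0.19. Over all tested probe sets, 75.3% of the 2450 with such a wild-type change had one in CBF2DN plants too, and 3.68% of the 12173 others. The 12173 include probe sets that rose in cold wild type by more than 0.3, which the choice barred from the members. The share for the 45 other members is therefore not comparable with 3.68%. Over the 62 members the cold changes of CBF2DN and wild type had a Pearson correlation of 0.90 and a Spearman correlation of 0.80, where all tested probe sets had 0.94 and 0.90. These are descriptions across probe sets read on the same arrays, and the wild-type change is one of the values that chose the members.

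The cold response was also fitted within each CBF2DN line. In DN96, 18 members were called lower and none higher, against 9.42% and 8.64% of all tested probe sets, and 12 of the 18 were among the 17 above. In DN89, 17 were called lower and 1 higher, against 9.01% and 10.1% of all tested, with 17 of the calls shared. The difference between the lines in cold response, a test added after seeing the data, called no member (1 higher and 7 lower at an unadjusted p below 0.05), with 0.00684% of all tested probe sets called in either direction. Its 95% interval lay within 2-fold for 24 of the 62 members, and reached beyond 2-fold for the others.

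**Figure D3:**
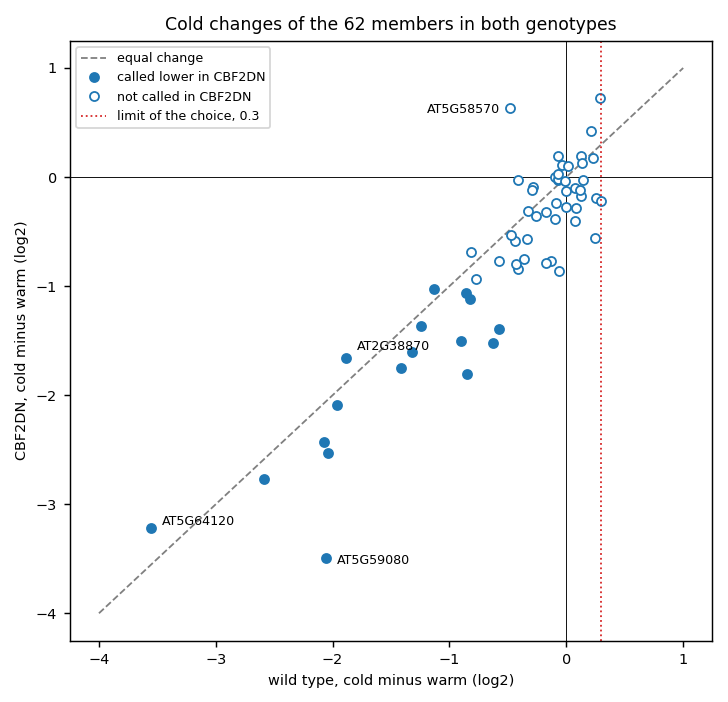
Cold minus warm log2 change of the 62 members in CBF2DN plants (vertical axis) against that in wild type (horizontal axis). Filled points are the 17 members called lower in CBF2DN, open points were not called, the dashed line marks equal change and the dotted line the limit of 0.3 that chose the members. AT5G59080 lies under the dashed line and AT5G58570 above it.

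CBF2DN and wild type were then compared at the same temperature. These comparisons share the wild-type samples with the choice of the members. In warmth no member was called, as for 0.0205% of all tested probe sets in either direction, and 5 were higher and 3 lower at an unadjusted p below 0.05. The median difference was 0.08, and the 95% interval of the difference lay within 2-fold for 38 of the 62 members.

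The lines of CBF2DN differed in warmth. DN96 alone against warm wild type had 5 members higher and 3 lower, against 0.191% and 0.985% of all tested probe sets. The P450 gene AT3G44970 was higher by 1.57 ± 0.24 (adjusted p = 0.000692) and AT5G58570 by 1.22 ± 0.26 (adjusted p = 0.00995), beside 250476_at (1.45), 258300_at (1.17) and 254251_at (1.12). The lower members were 264415_at (-1.76), 263431_at (-1.69) and 264577_at (-1.23). In DN89 no member was called against warm wild type (0.0274% of all tested in either direction), while at an unadjusted p below 0.05 7 members were higher and 1 lower.

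The direct comparison of DN96 with DN89 in warmth called 2 members higher and 3 lower, against 0.0274% and 0.882% of all tested probe sets. AT3G44970 was higher in DN96 by 1.45 ± 0.28 (adjusted p = 0.00927) and 250476_at by 1.84, and 263431_at (-1.38), 264415_at (-1.25) and 264577_at (-1.15) were lower. PYK10, a root marker, was at -0.99 in the same comparison (adjusted p = 0.0265, under 2-fold). The root markers EXPA7 and EXPA18 were at -1.08 (adjusted p = 0.0913) and -0.46 (adjusted p = 0.465). The part of these markers in these calls was not tested. In cold, 250476_at was higher in DN96 by 1.22 and 263431_at (-1.21), 264577_at (-1.11) and 258811_at (-1.10) were lower, which is 1 higher and 3 lower, against 0.0615% and 1.03% of all tested. These line calls rest on 2 samples each. Without warm CBF2DN replicate 1, 2 or 4 the 5 warm calls came to 3, 2 and 2, without cold replicate 2 or 4 the 4 cold calls came to 1 and 0, and with the 4 compared samples alone there were none.

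In cold, AT5G58570 was higher in CBF2DN plants than in wild type by 1.96 ± 0.35 (adjusted p = 0.00166), and AT5G59080 was lower by 1.5 ± 0.29 (adjusted p = 0.0029). The log2 level of AT5G58570 was 7.30, 7.40, 7.5 and 7.21 in cold CBF2DN plants, against 5.89, 5.10, 5.48 and 5.10 in cold wild type, with no overlap. In warmth it was 6.34, 6.35, 7.37 and 6.82 in CBF2DN plants, against 5.69, 5.55, 5.96 and 6.30 in wild type, a difference of 0.85 that did not pass (adjusted p = 0.705). Its overexpressor levels ran from 6.12 to 8.29 in CBF1OX, 6.41 to 6.93 in CBF2OX and 6.17 to 7.17 in CBF3OX, so cold CBF2DN plants lay above all CBF2OX samples. These 2 members were the ones called, 1 higher and 1 lower, against 0.39% and 0.445% of all tested probe sets, and the 257 probe sets above the limit on cold had 1 higher and 27 lower. With the 8 compared samples alone the call of AT5G59080 ended (adjusted p = 0.0897). DN96 alone against cold wild type had 2 members higher and 5 lower, against 0.711% and 2.03% of all tested probe sets. DN89 alone had 1 higher and 1 lower, against 0.472% and 0.212%.

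Lines of 1 construct differed widely in the members' levels. Both lines entered the means that chose the members, so the line differences below were not criteria themselves but are not free of the choice. In G39 the median difference from warm wild type was 2.01 and in G5 it was 0.47. A difference of at least 0.7 was found for 62 members in G39 and 14 in G5, for 45 in E24 and 55 in E2, and for 56 in A30 and 52 in A28. Over all tested probe sets that share was 6.57% in G39, 1.54% in G5, 3.09% in E24, 4.49% in E2, 3.37% in A30 and 4.08% in A28. The mean of CBF1OX therefore joined a line in which every member passed 0.7 and a line in which most did not.

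All 62 members had a higher mean in G39 than in G5, and 47 of them (75.8%) were called higher and none lower, against 2.48% and 3.36% of all tested probe sets. The median difference was 1.38, and the 257 probe sets raised by the overexpressors and above the limit on cold gave 174 called higher and a median of 1.27. The cupin gene AT4G36700 was higher in G39 by 5.67 ± 0.76 (SE, adjusted p = 1.82e-05), the SOUL family gene AT1G78450 by 3.22 ± 0.32 (adjusted p = 3.17e-07) and the P450 gene AT3G44970 by 2.68 ± 0.28 (adjusted p = 6.14e-07). AT1G47400 was higher by 2.43, AT2G38870 by 1.85, AT5G58570 by 1.88, AT4G27590 by 1.88 and AT1G65490 by 1.79. AT1G12030 and AT1G75770, both among the 47, were above 4 in 2 samples outside G39 and so met the filter only with the G39 samples counted, which makes their calls no support. AT1G12030 had log2 levels of 5.95 and 6.41 in G39 and 2.53 and 2.35 in G5, near the lowest value of the data set.

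The named members that did not pass between these lines were AT1G48750 (0.27), AT4G37550 (0.28), AT5G17700 (0.40), AT1G27030 (0.50), AT4G10270 (0.55), AT1G17860 (0.82), AT5G16450 (0.83), AT5G59080 (0.97) and AT5G64120 (1.18). Leaving out single CBF1OX samples gave 42 to 44 calls, and 35 members kept the call whichever sample was left out. Of the 12 that did not, AT3G28270 came to 1.05 and 0.96 without CBF1OX replicates 2 and 3, AT3G08030 to 0.93 and 0.96 without replicates 2 and 4, AT4G23930 to 0.85 without replicate 4, and 251677_at to 2.06 without replicate 1, and none of these passed. With the 4 CBF1OX samples alone 36 members were called, and 12 of the 47 calls ended (adjusted p from 0.0521 to 0.237). The replicate number as a block gave 40 calls, 39 of them among the 47. Of the classical CBF targets, LTI30 was higher in G39 by 2.24 and COR47 by 1.37, both dehydrin genes, while COR15A (0.69), COR15B (0.85) and DI21 (0.59) were not called. The root marker PYK10 was at -0.92 (adjusted p = 0.00778, under 2-fold). The root markers EXPA18 and EXPA7 were at -0.74 (adjusted p = 0.0207, under 2-fold) and -0.325 (adjusted p = 0.621). The part of these markers in the result was not tested.

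**Figure D4:**
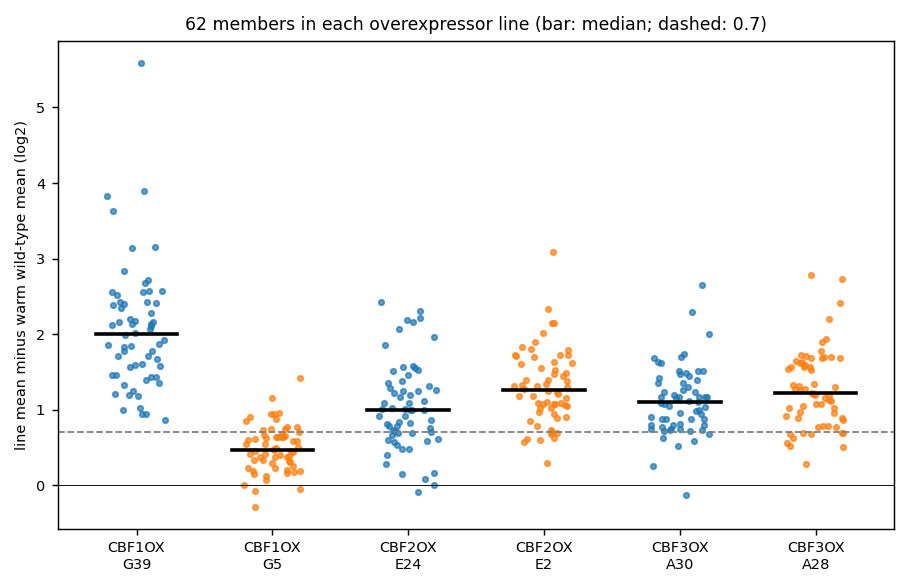
Mean log2 level of each of the 62 members in a line minus the mean of warm wild type, for the 6 overexpressor lines. Each point is a member, the bar is the median of the 62 and the dashed line marks 0.7. The points of G39 all lie above the dashed line and most points of G5 under it, while the CBF2OX and CBF3OX lines overlap.

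Fewer members were called between the CBF2OX lines, and most of the calls ran the other way. In E24 against E2, 9 members were lower and 1 higher, against 0.957% and 1.34% of all tested probe sets, and the median difference was -0.24. The wound-responsive family gene AT4G10270 was lower in E24 by 1.89 ± 0.34 (adjusted p = 0.0016), AT4G27590 by 1.5 ± 0.21 (adjusted p = 0.000197), AT3G08030 by 1.29 ± 0.19 (adjusted p = 0.000328), AT1G27030 by 1.32, AT3G44970 by 1.13 and AT4G01700 by 1.04, as were 255437_at, 250476_at and 266830_at. The peroxidase gene AT5G64120 was higher in E24, by 1.87 ± 0.39 (adjusted p = 0.00601). The 257 probe sets above the limit on cold had none higher and 40 lower. With the 4 CBF2OX samples alone all 10 calls ended (adjusted p from 0.169 to 0.228), and without replicate 1 or replicate 3 there were 5 calls.

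A30 and A28 of CBF3OX had no member called, as for 0.00684% of all tested probe sets in either direction, while at an unadjusted p below 0.05 4 members were higher and 9 lower in A30. The 95% interval lay within 2-fold for 42 of 62 members, and without replicate 2 of CBF3OX 1 member was called. The lowest value was that of 250476_at, -1.69 ± 0.30 (adjusted p = 0.103). This probe set also differed between the other pairs of lines. Its log2 level was 5.44 and 5.17 in G39 against 3.36 and 3.14 in G5, 4.01 and 3.35 in E24 against 5.27 and 5.22 in E2, 3.60 and 3.21 in A30 against 4.73 and 5.46 in A28, and 5.13 and 4.82 in warm DN96 against 3.14 and 3.14 in warm DN89. In each construct the lines did not overlap, and 1 of them lay near the warm wild-type level of 3.35 to 4.02.

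The overexpressors were also compared with each other. The demand for a rise of at least 0.7 in each of them narrows these differences. No member was called in CBF2OX minus CBF1OX, CBF3OX minus CBF1OX or CBF3OX minus CBF2OX, where 0.0342%, 0.0205% and 0.0205% of all tested probe sets were called in either direction. At an unadjusted p below 0.05, 1 member was higher and 3 lower in the first, 1 higher and 0 lower in the second and 1 higher and 1 lower in the third. The 95% interval lay within 2-fold for 40, 43 and 44 members. AT4G10270 had the highest difference in CBF3OX, with 0.87 ± 0.41 over CBF1OX (adjusted p = 0.945) and 0.94 ± 0.41 over CBF2OX (adjusted p = 0.839), and 264415_at was at -1.11 ± 0.35 in CBF3OX against CBF2OX (adjusted p = 0.74).

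The calls in these comparisons depended on the line that stood for CBF1OX. With G5 alone, 8 members were called higher in CBF2OX and 8 in CBF3OX and none lower, against 0.574% and 0.527% of all tested probe sets called higher. With G39 alone, 18 members were called lower in CBF2OX and 13 in CBF3OX and none higher, against 0.588% and 0.39% called lower. With E24 alone for CBF2OX, 2 members were called higher in CBF3OX, against 0.547% of all tested.

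Samples of 1 line also differed, and some members moved together in them. This was described through AT1G47400, a choice made after its values were seen, as the correlation of deviations from the means of 12 line and condition groups over 28 samples that share their arrays. The deviations of 264751_at had a Pearson correlation of 0.90 with those of AT1G47400, 251677_at had 0.81, 247001_at 0.78, AT4G36700 0.71 and AT3G44970 0.68. Over the 61 other members the median was 0.12, with 2 at 0.8 or higher and 20 below 0, so most members did not move with it. In CBF3OX, 251677_at had log2 levels of 10.25 and 8.12 in A30 and 8.86 and 10.27 in A28, and 264751_at had 8.04 and 7.04 in A30 and 7.27 and 8.01 in A28. Replicates 2 and 3 of CBF3OX were thus the high samples for both, as they were for AT1G47400, AT4G36700 and AT1G12030, which had 4.98 and 2.31 in A30 and 2.92 and 4.89 in A28. In warm CBF2DN plants the low sample for AT1G47400 (7.85) was replicate 3, and it was also the low one for 264751_at (5.69, others 6.69 to 6.88) and 251677_at (6.67, others 7.46 to 8.18).

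**Figure D5:**
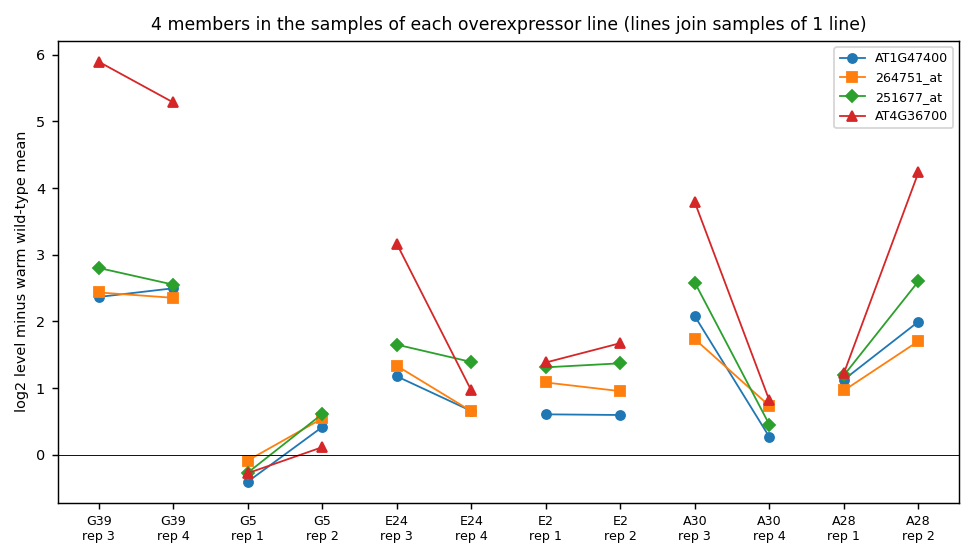
Log2 level of AT1G47400, 264751_at, 251677_at and AT4G36700 minus the mean of warm wild type in each of the 12 overexpressor samples, with samples of 1 line joined. In both CBF3OX lines all 4 are higher in 1 sample than in the other, and both G39 samples are high.

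The known targets of CBF give the setting for these members. Of 14 genes on a list of cold-raised CBF targets, 5 were measured by name: COR15A and COR15B, which encode chloroplast cold-protection proteins, the dehydrin genes COR47 and LTI30, and DI21. In CBF1OX, CBF2OX and CBF3OX, 5, 4 and 5 of them were higher, with medians of 4.21, 4.99 and 4.78, and in cold wild type 5 were, with a median of 5.36. In cold CBF2DN plants 5 rose against warm ones, with a median of 5.6, and none was called between CBF2DN and wild type in warmth or in cold. In DN96 minus DN89, LTI30 was at -1.09 in warmth (adjusted p = 0.00378) and -1.065 in cold (adjusted p = 0.00452). No other of these targets was called between the CBF2DN lines. Of 12 defence and jasmonate genes 2 were measured, the defensin genes PDF1.2 and PDF1.2b. Of these, 2, 1 and 1 were called lower in CBF1OX, CBF2OX and CBF3OX. PDF1.2 was at -1.01, -0.95 and -0.985 there, each at an adjusted p below 0.05, so only the 2-fold limit parted its calls. Neither gene was called between cold and warm CBF2DN plants. There PDF1.2 was at -0.58 (adjusted p = 0.036, under 2-fold) and PDF1.2b at -0.62 (adjusted p = 0.059). None of 16 gibberellin and growth genes was measured by name.

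Markers bore on the labelled tissue only in small number. The leaf gene RCA, encoding Rubisco activase, 1 of 6 leaf markers measured, had means of 13.08 to 13.67 over the groups. Of the root markers 3 of 4 were measured, with group means of 10.79 to 11.84 for PYK10, a gene that seedling shoots also express, and 3.18 to 4.31 for EXPA7 and 3.45 to 4.5 for EXPA18, which are expansin genes of root hairs. PYK10 fell in cold CBF2DN plants by 1.03 ± 0.26 (adjusted p = 0.00205), and its part in the falls of the members was not tested. EXPA18 was lower in CBF3OX than in warm wild type by 1.0 ± 0.19 (adjusted p = 0.00146), and its part in the members' values there was not tested. FAMA, 1 of 3 guard cell markers, had means of 4.74 to 5.69, and no marker of seed, flower or trichome was measured. Arrays were alike in overall level, with medians from 4.98 to 5.08 and a mean correlation within groups from 0.986 to 0.995.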

How the data were processed

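The deposited table holds log2 expression values per probe set from an Affymetrix Arabidopsis array, which the authors made with GCRMA; this and limma are named per the submitters' processing notes, without versions or settings. GCRMA corrects background by probe sequence, so 11.6% of values lie at the lowest value, 2.16. The number of arrays limits the precision. Gene names came from the platform annotation, and loci were matched to the RefSeq table of TAIR10.1. The members and lists were chosen with earlier results of these data known.

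Probe sets with a log2 level above 4 in at least 4 of 28 samples (14623) were fitted with limma 3.58.1 (lmFit, eBayes) in R 4.3.3, in a model of 7 group means or of 12 line and condition means, with Benjamini-Hochberg adjustment over all of them. Called, rose and fell mean an adjusted p below 0.05 with at least 2-fold. The fit was tested on simulated data. Random blocks used statmod 1.5.0, and tables and figures Python 3.11.15 with pandas 2.3.3 and matplotlib 3.10.9. Alternatives were no filter, median centring, quantile normalization, an intensity trend, the replicate number or the line as a block, compared groups alone, single lines and leaving out single samples. Same-numbered cold and warm CBF2DN samples share a line, and their deviations correlated at 0.282, 0.225, 0.152 and 0.279. The differently numbered samples of a line share it too, so these values do not show pairs, and the labels name none. For the other groups compared the range was -0.286 to 0.379, and these were not taken as pairs either.

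Named are all members with a locus, the unnamed ones with the 10 largest mean rises or the 10 lowest wild-type cold changes, those called in a comparison outside the choice (up to 10 each), and up to 3 on each side of a threshold; 247001_at is outside this rule and was chosen after its values were seen.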

Additional observations from a re-analysis of the deposited data

Results flagged for a closer look

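Of 357 groups of 4 samples of the 51 named members, 23 had a sample far from the other 3, with a gap to the nearest of them that passed Dixon's 95% limit as a share of the group's range, a limit that chance passes in about 1 of 20 groups. In warm CBF2DN plants, AT1G47400 was at 7.85 in replicate 3 (others 9.33 to 9.43) and 264751_at at 5.69 in the same sample (others 6.69 to 6.88), AT5G16450 at 7.53 in replicate 1 (others 7.29 to 7.32), 257471_at at 2.90 in replicate 1 (others 2.70 to 2.72) and 246389_at at 3.37 in replicate 2 (others 3.24). In cold CBF2DN plants, AT3G08030 was at 7.73 in replicate 4 (others 8.15 to 8.23), 258064_at at 5.6 in replicate 1 (others 5.0 to 5.08), 247005_at at 3.36 in replicate 1 (others 3.23) and 266830_at at 4.24 in replicate 2 (others 4.21).

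In CBF2OX, AT3G28270 was at 6.11 in replicate 1 (others 4.81 to 5.02) and AT1G47400 at 10.16 in replicate 3 (others 9.58 to 9.64). In cold wild type, 251677_at was at 4.66 in replicate 2 (others 5.84 to 6.0), AT2G32430 at 5.02 in replicate 2 (others 5.26 to 5.29), 246389_at at 3.04 in replicate 2 (others 2.97), AT3G28270 at 4.20 in replicate 3 (others 3.53 to 3.59) and 263431_at at 8.93 in replicate 1 (others 9.33 to 9.36). In warm wild type, replicate 4 stood apart for AT5G16450 at 6.55 (others 7.25 to 7.30), 250476_at at 4.02 (others 3.35 to 3.40), AT2G32430 at 5.14 (others 4.92 to 4.94) and AT1G78450 at 3.20 (others 3.06 to 3.07), replicate 3 for AT1G75770 at 2.59 (others 2.51), replicate 2 for 246272_at at 5.12 (others 4.99 to 5.01) and replicate 1 for 247005_at at 4.01 (others 4.34 to 4.38). Some of these ranges are narrow and lie near the lowest values of the data, as for AT1G75770 and 246389_at.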

How the results depend on the processing

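Counts are of members called. The 17 in cold against warm CBF2DN were also 17 with the replicate block and 15 to 17 without single samples. Quantile normalization left 2 of 4 for DN96 minus DN89 in cold. The replicate block left 6 of 10 for E24 minus E2 and 2 for DN96 minus DN89 in warmth (5) and in cold (4), and moved no other count over 1.5 times. Compared groups alone left 1 of 2 for CBF2DN against wild type in cold and 0 for E24 minus E2 and for DN96 minus DN89 in warmth and in cold. Line DN96 alone gave 8 (0 with both lines) against wild type in warmth and 7 (2) in cold. Those 7 were 2 higher and 5 lower, against 0.711% and 2.03% of all tested probe sets. G5 alone gave 8 for CBF2OX and 8 for CBF3OX against CBF1OX, G39 alone 18 and 13, and E24 alone 2 for CBF3OX minus CBF2OX, where both lines gave 0. Without single samples the range was 0 to 0 for CBF2DN against wild type in warmth, 2 to 3 in cold, 42 to 44 for G39 minus G5, 5 to 8 for E24 minus E2, 0 to 1 for A30 minus A28, 2 to 4 and 0 to 4 for DN96 minus DN89 in warmth and cold, and 0 to 0 for the overexpressor pairs and the line difference in cold response. Without a minimum change, 24, 0 and 3 members passed for the CBF2DN comparisons, in the order of cold response, warm and cold against wild type. Over all 14623 tested probe sets, 7656, 4 and 794 passed in either direction. Of 1002 repeats of single calls, 878 held, 124 ended and 0 reversed. The cause of these moves was not tested, other than fewer samples in fits of compared groups, single lines or left-out samples. No filter, median centring, the intensity trend and the line as a random block moved no count over 1.5 times.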
